A study of Mus musculus with 9 samples.

Results

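The myelin genes of mature oligodendrocytes were followed here as 9 genes, Mbp, Mog, Mag, Mobp, Cnp, Cldn11, Opalin, Mal and Ermn, in 9 bulk RNA sequencing libraries of freshly taken mouse ventral hippocampus. They were found by gene symbol among the 53465 genes of the deposited table. Each symbol matched 1 identifier, and 9 of 9 passed the filter on low values. There were 3 libraries labelled CRS-WT-DR5-12D, 3 labelled CRS-NKAα1+/- and 3 labelled CRS-WT. CRS, in common use for chronic restraint stress, is not spelled out in the labels and is carried by all 3 groups, so no group without it was compared. DR5-12D, which the labels also leave unexplained, is known as an antibody to the α1 subunit of the sodium pump (Na,K-ATPase), and NKAα1+/- denotes 1 intact copy of the gene for that subunit. The labels used here give no age, sex or strain, no nature of the altered allele, no dose and no animal for any library, so p-values measure the spread between these libraries, which may in part be technical.

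Oligodendrocytes wrap axons of the central nervous system in myelin, a stack of compacted membrane that insulates the axon and speeds conduction. Precursor cells stop dividing, pass through a committed stage and then switch on the myelin genes together, a step driven by the transcription factors SOX10 and MYRF. In the hippocampus myelin is densest in the fibre tracts that border it, the alveus and fimbria, and sparser among the cell bodies. In bulk tissue, fewer cells of a type and less RNA per cell cannot be told apart.

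All 9 members were above 4 FPKM in each library (fragments per kilobase of gene model, scaled to the depth of the library). Of the markers listed for the myelinating cell of peripheral nerve, Drp2 stood at 7.41 to 10.7 FPKM, Egr2 at 0.584 to 9.73 and Prx at 0.182 to 0.585, while Pmp2, of whose exon bases 86.9% are shared on the same strand with Gm37389, was listed at 0. Depth, as recovered from the steps between low values, was 15117452 to 27323380 fragments per library. Markers of dentate gyrus granule cells, 14 genes, had a mean log2(FPKM + 1) of 1.77 in CRS-WT-DR5-12D replicate 1 and of 1.68 and 1.63 in replicates 1 and 2 labelled CRS-NKAα1+/-, against 2.63 to 3.01 in the other 6 libraries. These 3 libraries stood apart, and the medians over the members are also given without them.

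The sequences upstream of 4 members are shown, each with a match to CTGGNAC or ACAAAG, motifs described below. RefSeq windows on GRCm38.p6 were found for 8 of the 9 members, with 10 windows in all. The 250 bases before the start were searched on both strands for CTGGNAC, the motif of MYRF, for ACAAAG, a core motif of SOX factors, for its short form ACAAT and for the E-box CANNTG. Capitals mark matches to CTGGNAC and ACAAAG on either strand, and no such match in a window overlapped another. CTGGNAC was present in 4 of the 10 windows, upstream of Cnp, Mag and Mog, and in 16.1% of all 32851 windows of that length. ACAAAG was present in 5 of the 10, upstream of Cnp, Mag, Mobp and Opalin, and in 16.5% of all windows. Mag had several windows, of which chr7:30914864-30915113 and chr7:30914923-30915172 overlap. The same Mag matches to CTGGNAC and ACAAAG were thus counted in both, and the windows of the members are not independent. ACAAT was present in 1 of the 10, upstream of Ermn, and in 27.7% of all windows. CANNTG was present in 4 of the 10, upstream of Cnp, Mag and Opalin, and in 66.2% of all windows. The windows of Mal and Cldn11 held no match to any of these motifs. The window of Opalin is chr19:41077114-41077363 (minus strand), of Mog chr17:37023399-37023648 (minus strand), of Cnp chr11:100574689-100574938 (plus strand) and of Mobp chr9:120149492-120149741 (plus strand).
Opalin: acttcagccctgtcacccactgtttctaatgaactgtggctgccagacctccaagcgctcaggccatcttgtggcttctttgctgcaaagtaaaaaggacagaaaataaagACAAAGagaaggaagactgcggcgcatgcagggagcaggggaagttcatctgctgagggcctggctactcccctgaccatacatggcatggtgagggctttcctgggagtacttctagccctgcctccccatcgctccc
Mog: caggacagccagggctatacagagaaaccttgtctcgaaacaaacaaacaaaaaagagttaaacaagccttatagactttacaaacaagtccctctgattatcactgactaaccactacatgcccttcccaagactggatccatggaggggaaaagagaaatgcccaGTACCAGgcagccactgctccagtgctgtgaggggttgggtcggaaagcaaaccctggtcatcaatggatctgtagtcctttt
Cnp: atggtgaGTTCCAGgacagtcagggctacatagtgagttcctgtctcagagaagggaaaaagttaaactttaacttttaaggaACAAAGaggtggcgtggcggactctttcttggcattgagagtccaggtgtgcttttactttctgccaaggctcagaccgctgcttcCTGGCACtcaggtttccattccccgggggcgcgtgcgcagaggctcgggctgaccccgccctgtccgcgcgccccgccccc
Mobp: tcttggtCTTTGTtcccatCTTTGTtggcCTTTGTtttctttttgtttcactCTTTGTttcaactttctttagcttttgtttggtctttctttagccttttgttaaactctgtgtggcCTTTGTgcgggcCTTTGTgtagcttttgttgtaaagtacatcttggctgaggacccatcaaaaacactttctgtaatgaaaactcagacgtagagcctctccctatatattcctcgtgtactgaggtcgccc
Opalin held 1 match to ACAAAG, at -139 to -134 from the start. Mog held 1 match to CTGGNAC, at -83 to -77, and Cnp held 2, at -243 to -237 and -81 to -75, besides 1 to ACAAAG at -167 to -162. Mobp held 6 matches to ACAAAG, each read as CTTTGT on the printed strand, and none to CTGGNAC. A match describes the letters in the window and does not show a bound site.

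Levels per length ran from Mbp, the highest, to Ermn. Over the 9 libraries the mean FPKM was 227 for Mbp, 61.7 for Cnp, 60.9 for Mobp, 52.4 for Mal, 36.7 for Cldn11, 26.8 for Mag, 17.2 for Mog, 11.02 for Opalin and 7.42 for Ermn. Mbp encodes the basic protein that binds the cytoplasmic faces of the myelin membrane together, and its lowest level, 103 FPKM, lay above the highest of any other member, 94.4 FPKM for Mobp. Neighbours in this order kept it in 9 of 9 libraries from Mal down to Opalin. Cnp was above Mobp in 5 of 9 libraries, Mobp above Mal in 7 and Opalin above Ermn in 6, so these neighbours did not differ beyond their spread. The Mbp locus also produces golli transcripts, which cells other than oligodendrocytes make, and a gene-level value does not separate them.

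The members also differed in how far they spread. The ratio of the highest to the lowest library was 2.06 for Cnp, 2.19 for Cldn11, 2.37 for Ermn, 2.69 for Mal, 2.75 for Mag, 3.30 for Mobp, 3.31 for Mbp, 4.53 for Mog and 5.52 for Opalin. Replicate 2 labelled CRS-NKAα1+/- was the lowest library for 8 of 9 members, the exception being Opalin, lowest in replicate 1 of that label. CRS-WT-DR5-12D replicate 2 was the highest for 8 of 9, the exception being Mobp, highest in CRS-WT replicate 1. Fragments behind a value ran from 238 for Opalin to 77455 for Mbp, so counting error was small beside the spread between libraries.

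**Figure D1:**
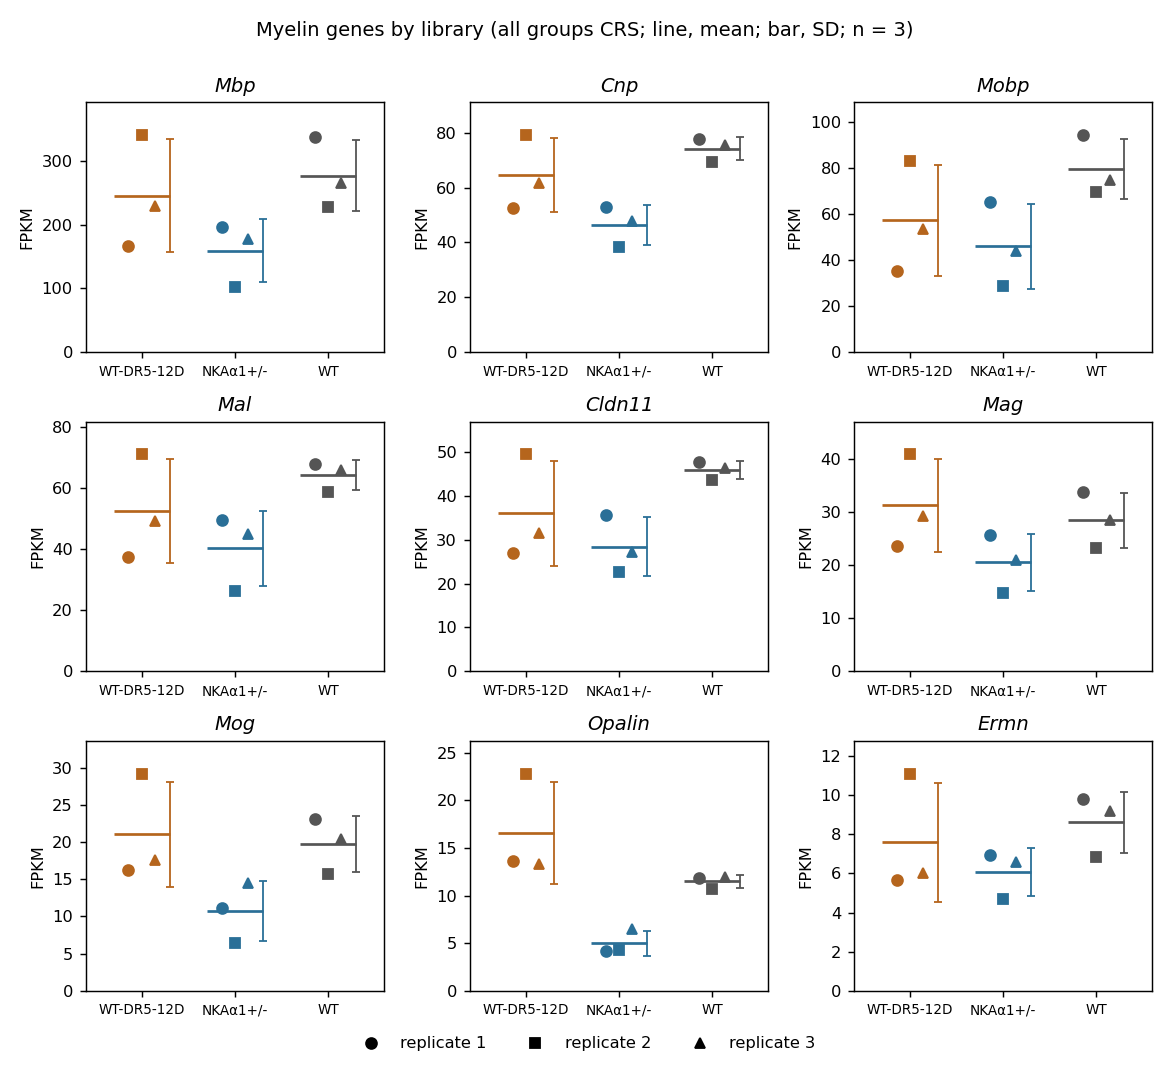
FPKM of each of the 9 myelin genes (1 panel each, linear axes from 0) in the 3 libraries of CRS-WT-DR5-12D, of the label CRS-NKAα1+/- and of CRS-WT, with the group mean as a line, the SD as a bar and the replicate number as the symbol. Replicate 2 is the lowest library labelled CRS-NKAα1+/- for each gene but Opalin, and replicate 2 of CRS-WT-DR5-12D is above both other libraries of its group in each panel.

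The first comparison asks how the libraries labelled CRS-NKAα1+/- differ from CRS-WT. All 9 members had lower fitted means in the libraries labelled CRS-NKAα1+/-, with a median log2 difference of -0.70 over the members, beside 0.0091 over all 17753 genes tested. None passed an adjusted p of 0.05 (limma, Benjamini-Hochberg over all genes), where 0% of all genes were called lower and 0.0225% higher. For 7 members each library labelled CRS-NKAα1+/- lay below each CRS-WT library, beside 10% of all genes lower in this way and 10.9% higher. An unadjusted p under 0.05 was reached by 7 members, beside 14.1% of all genes.

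The proteins of compact myelin and its outer surface come first. Mbp stood at 197, 103 and 177 FPKM in the libraries labelled CRS-NKAα1+/-, against 337, 228 and 265 in CRS-WT. The groups did not overlap, and the log2(FPKM + 1) difference was -0.83 ± 0.31 (SE; limma adjusted p 0.325). Mobp, a small basic protein of compact myelin, stood at 65.2, 28.6 and 43.9 FPKM in the libraries labelled CRS-NKAα1+/-, against 94.4, 69.7 and 74.9 in CRS-WT, again without overlap. Replicate 1 labelled CRS-NKAα1+/- came close to the lowest CRS-WT library, and the difference was -0.85 ± 0.35 (limma adjusted p 0.343). Mog, an immunoglobulin-like protein on the outermost face of the sheath, stood at 11.2, 6.45 and 14.5 FPKM in the libraries labelled CRS-NKAα1+/-, against 23.1, 15.8 and 20.4 in CRS-WT. Its difference was -0.87 ± 0.30 (limma adjusted p 0.305), with no overlap.

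Opalin and Cnp had the smallest p-values of the members in this comparison. Opalin, a transmembrane glycoprotein of oligodendrocytes, stood at 4.14, 4.30 and 6.48 FPKM in the libraries labelled CRS-NKAα1+/-, against 11.8, 10.7 and 12.0 in CRS-WT. Each of the 3 libraries labelled CRS-NKAα1+/- lay well below the CRS-WT range, and the log2(FPKM + 1) difference was -1.09 ± 0.21 (limma adjusted p 0.152). Cnp, a cyclic nucleotide phosphodiesterase of the cytoplasm-filled channels of myelin, stood at 52.9, 38.5 and 47.7 FPKM in the libraries labelled CRS-NKAα1+/-, against 77.7, 69.5 and 75.6 in CRS-WT. These groups were separate too, and the difference was -0.68 ± 0.16 (limma adjusted p 0.198). Of the bases of the Cnp gene model 4.23% lie opposite exons of Dnajc7.

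The other 4 members were Cldn11, Mal, Mag and Ermn. Cldn11, the claudin of the tight junctions within the sheath, averaged 28.4 ± 6.63 FPKM in the libraries labelled CRS-NKAα1+/- and 45.8 ± 2.02 in CRS-WT (SD, n = 3 each). Mal, a proteolipid of membrane rafts, averaged 40.3 ± 12.3 FPKM in the libraries labelled CRS-NKAα1+/- and 64.2 ± 4.80 in CRS-WT. Neither gene overlapped between the groups, with log2(FPKM + 1) differences of -0.69 ± 0.22 for Cldn11 and -0.70 ± 0.27 for Mal (limma adjusted p 0.297 and 0.329). Mag, a sialic acid-binding receptor on the membrane next to the axon, stood at 25.7, 14.9 and 21.1 FPKM in the libraries labelled CRS-NKAα1+/-, against 33.8, 23.4 and 28.5 in CRS-WT. Ermn, a protein that binds the actin cytoskeleton, averaged 6.07 ± 1.22 FPKM in the libraries labelled CRS-NKAα1+/- and 8.61 ± 1.56 in CRS-WT. Both overlapped between the groups, with differences of -0.47 ± 0.24 for Mag and -0.45 ± 0.24 for Ermn (limma adjusted p 0.391 and 0.409).

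These lower values moved with other measures. Of the libraries labelled CRS-NKAα1+/-, 2 were low in dentate markers, and with the mean of the 14 dentate markers as a covariate the median member difference was -0.37. Without the 3 libraries low in dentate markers, replicate 3 labelled CRS-NKAα1+/- is alone in its group and is assumed to vary like the other groups. The median member difference was then -0.62, beside 0.0087 over all genes tested. When the values were rescaled to TPM (each library summing to the same total) the median over all genes moved to -0.42, the median over the members was -1.19, and 9 of 9 members were called lower, as were 7353 of all genes. The sum of FPKM over all genes in a library ran from 435976 to 516373 in CRS-WT-DR5-12D, from 440603 to 540317 in the libraries labelled CRS-NKAα1+/- and from 336555 to 394188 in CRS-WT. The part of these shifts in the result was not tested.

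**Figure D2:**
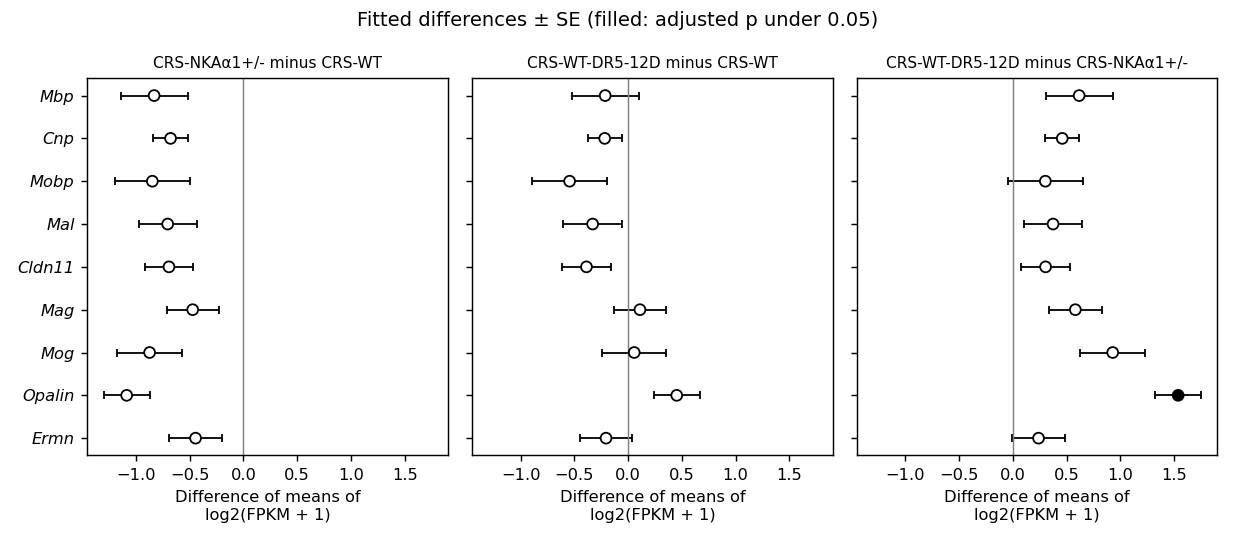
Fitted differences of group means of log2(FPKM + 1) with their standard errors for the 9 myelin genes, in order of mean FPKM, in the 3 comparisons named above the panels. All points lie below 0 for the label CRS-NKAα1+/- minus CRS-WT and above 0 for CRS-WT-DR5-12D minus the label CRS-NKAα1+/-, where the filled point, Opalin at 1.54, is the only one called.

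The CRS-WT-DR5-12D libraries were set next against those of CRS-WT, which carry the same genotype label. No common direction was seen: 6 members had lower and 3 had higher fitted means in CRS-WT-DR5-12D, with a median of -0.21, beside 0.0071 over all genes tested, and 8 lower and 1 higher after rescaling to TPM, where Mog and Mag turned. None passed the adjusted threshold (limma), where 0% of all genes were called lower and 0.0282% higher. None reached an unadjusted p under 0.05, beside 13% of all genes. Only Opalin was separate between the groups, higher in each CRS-WT-DR5-12D library, where 11.4% of all genes were separate in that direction, and as large a share, 11.4%, was separate and lower.

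Opalin stood at 13.6, 22.8 and 13.3 FPKM in CRS-WT-DR5-12D, against 11.8, 10.7 and 12.0 in CRS-WT. The log2(FPKM + 1) difference was 0.45 ± 0.21 (limma adjusted p 0.409), and without CRS-WT-DR5-12D replicate 2, the highest library, it was 0.21. Mobp had the most negative difference. It stood at 35.1, 83.1 and 53.4 FPKM in CRS-WT-DR5-12D, against 94.4, 69.7 and 74.9 in CRS-WT, so that replicate 2 lay inside the CRS-WT range and replicates 1 and 3 below it. The difference was -0.54 ± 0.35 (limma adjusted p 0.542). Mbp stood at 167, 341 and 229.5 FPKM in CRS-WT-DR5-12D, against 337, 228 and 265 in CRS-WT, a difference of -0.21 ± 0.31 (limma adjusted p 0.782).

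Relative to the mean, the spread was wider in CRS-WT-DR5-12D and in the libraries labelled CRS-NKAα1+/- than in CRS-WT for each of the 9 members. The SD itself was smaller in the libraries labelled CRS-NKAα1+/- than in CRS-WT for Mbp (49.5 and 55.8 FPKM) and Ermn (1.22 and 1.56). The coefficient of variation of FPKM ran from 20.9% for Cnp to 42.4% for Mobp in CRS-WT-DR5-12D and from 15.7% for Cnp to 40.0% for Mobp in the libraries labelled CRS-NKAα1+/-, against 4.42% for Cldn11 to 20.2% for Mbp in CRS-WT. Replicate 1, one of the libraries low in dentate markers, and replicate 2 stood at opposite ends for most members, as for Cnp with 52.8 and 79.2 FPKM. The median member difference was -0.48 without replicate 2 and -0.049 without replicate 1, and with all 3 libraries low in dentate markers left out it was also -0.049.

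The third comparison sets CRS-WT-DR5-12D directly against the libraries labelled CRS-NKAα1+/-. It shares its libraries with the comparisons above and is no independent support for them. All 9 members had higher fitted means in CRS-WT-DR5-12D, with a median of 0.46, beside 0.0065 over all genes tested, and of 0.59 without the 3 libraries low in dentate markers. Opalin was the only member called (limma, Benjamini-Hochberg over all genes). It was 1 of 2 genes called higher, 0.0113% of those tested, while 0.501% were called lower. Opalin and Mog were separate between the groups, higher in each CRS-WT-DR5-12D library, beside 5.35% of all genes separate in that direction and 7.15% in the other. An unadjusted p under 0.05 was reached by 4 members, Opalin, Mog, Cnp and Mag, beside 8.83% of all genes.

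Opalin stood at 13.6, 22.8 and 13.3 FPKM in CRS-WT-DR5-12D, against 4.14, 4.30 and 6.48 in the libraries labelled CRS-NKAα1+/-. The lowest CRS-WT-DR5-12D library was thus above the highest of the other group by a wide margin. The means were 16.6 ± 5.39 FPKM in CRS-WT-DR5-12D and 4.97 ± 1.31 in the libraries labelled CRS-NKAα1+/- (SD, n = 3 each), a ratio of 3.34. The log2(FPKM + 1) difference was 1.54 ± 0.21 (limma adjusted p 0.0287), higher in 3 of 3 libraries. Its direction held under 19 of 19 alternative settings, with differences of 1.30 to 1.73, but the call held under 8 of them, with adjusted p of 0.021 to 0.220. Without the 3 libraries low in dentate markers, which leaves 1 library labelled CRS-NKAα1+/-, assumed to vary like the other groups, the difference was 1.305 (limma adjusted p 0.220), and with the dentate covariate it was 1.32 (limma adjusted p 0.0358). The call ended when any 1 CRS-WT or any 1 CRS-WT-DR5-12D library, or replicate 2 labelled CRS-NKAα1+/-, was left out, with adjusted p of 0.0615 to 0.115.

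Mog followed. It stood at 16.3, 29.2 and 17.6 FPKM in CRS-WT-DR5-12D, against 11.2, 6.45 and 14.5 in the libraries labelled CRS-NKAα1+/-, and the lowest and highest of these neighbouring ranges lay close together. The difference was 0.93 ± 0.30 (limma adjusted p 0.338). Mag stood at 23.7, 41.0 and 29.3 FPKM in CRS-WT-DR5-12D, against 25.7, 14.9 and 21.1 in the libraries labelled CRS-NKAα1+/-, and the groups overlapped by 1 library each. Its difference was 0.58 ± 0.24 (limma adjusted p 0.527). Cnp differed by 0.46 ± 0.16 (limma adjusted p 0.386), Mbp by 0.62 ± 0.31 (0.647), and the other 4 members by 0.24 to 0.37. Without CRS-WT-DR5-12D replicate 2 the median member difference was 0.30 and the values of Mobp and Ermn turned to -0.0049 and -0.035.

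The proportions among the members varied as well as their sum. Their summed FPKM was 378, 728 and 492 in CRS-WT-DR5-12D, 448, 249.2 and 389 in the libraries labelled CRS-NKAα1+/- and 703, 526 and 598 in CRS-WT. Mbp supplied 44.1% to 46.8% of the sum in CRS-WT-DR5-12D, 41.3% to 45.5% in the libraries labelled CRS-NKAα1+/- and 43.3% to 48.0% in CRS-WT, so its share stayed within a narrow band. Opalin, in contrast, supplied 2.71% to 3.60% of the sum in CRS-WT-DR5-12D, 0.923% to 1.73% in the libraries labelled CRS-NKAα1+/- and 1.68% to 2.03% in CRS-WT. These shares and the ratios below were looked at after the values were seen and carry no test.

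Per 100 FPKM of Mbp, Opalin stood at 8.17, 6.69 and 5.81 FPKM in CRS-WT-DR5-12D, at 2.10, 4.18 and 3.66 in the libraries labelled CRS-NKAα1+/- and at 3.51, 4.70 and 4.53 in CRS-WT. The CRS-WT-DR5-12D libraries lay above both other groups, and replicate 1, low in dentate markers and in Mbp, was the highest. Per 100 FPKM of Mobp, Mag stood at 67.5, 49.3 and 55.0 FPKM in CRS-WT-DR5-12D, at 39.4, 52.0 and 48.1 in the libraries labelled CRS-NKAα1+/- and at 35.8, 33.5 and 38.0 in CRS-WT. Here both other groups lay above CRS-WT in each library. Mog per 100 FPKM of Mbp overlapped between the groups, at 7.67 to 9.78 in CRS-WT-DR5-12D, 5.68 to 8.18 in the libraries labelled CRS-NKAα1+/- and 6.84 to 7.69 in CRS-WT.

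**Figure D3:**
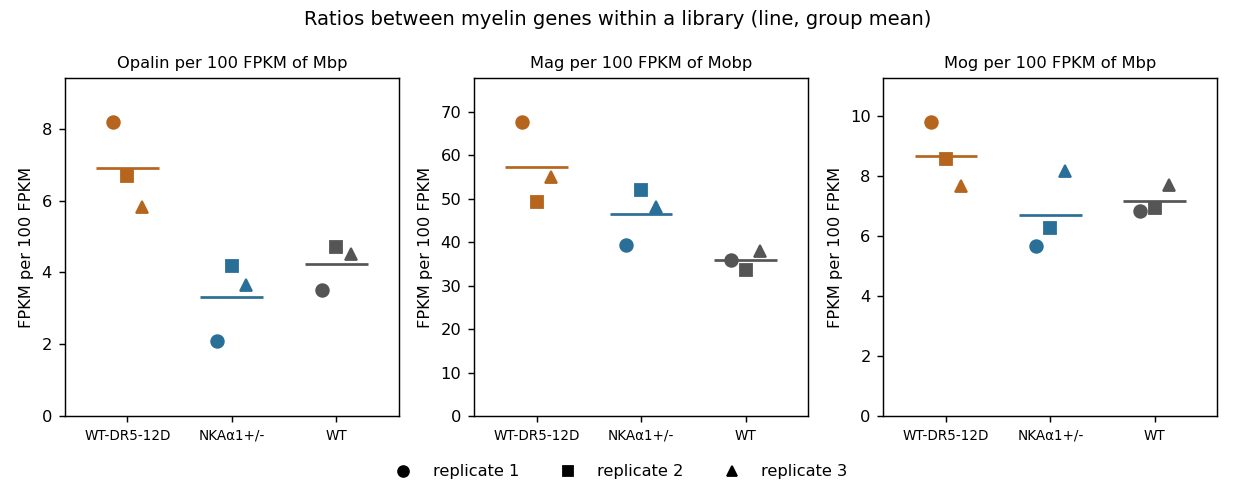
FPKM of 1 myelin gene per 100 FPKM of another within each library (linear axes from 0), for Opalin over Mbp, Mag over Mobp and Mog over Mbp, in CRS-WT-DR5-12D, the label CRS-NKAα1+/- and CRS-WT, with the group mean as a line and the replicate number as the symbol. The CRS-WT-DR5-12D libraries stand at 5.81 to 8.17 for Opalin over Mbp, above the other 6 libraries.

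Across the 9 libraries the members varied together, with Opalin the least tied to the rest. Pearson r of log2(FPKM + 1) ran from 0.75 to 0.97 over the 28 pairs without Opalin, with a median of 0.91. It ran from 0.47 to 0.88 over the 8 pairs with Opalin, with a median of 0.67. After the group means were removed it ran from 0.48 to 0.99 over all 36 pairs, with a median of 0.91. These are descriptions over 9 libraries, which differed in depth and in dentate markers, and they carry no p.

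The genes whose pattern was most like that of the members were sought among 12259 other genes, each averaging 1 FPKM or more, by Pearson r with the mean of the standardised members over 9 libraries. Among the highest were Plekhb1, Tspan2, Ttyh2, Myo1d, Prr18, Gjb1 and Bcas1, with r of 0.95 to 0.98 and Spearman rho of 0.93 to 0.98. Plekhb1 averaged 70.4 ± 19.3 FPKM in CRS-WT-DR5-12D, 50.8 ± 10.7 in the libraries labelled CRS-NKAα1+/- and 82.5 ± 13.4 in CRS-WT (SD, n = 3 each). Left without the 2 libraries farthest from the median, replicate 2 labelled CRS-NKAα1+/- and CRS-WT-DR5-12D replicate 2, r was 0.87 to 0.97. The 4 genes most opposed were Rnf19b, Pdgfb, Dglucy and Trmt44, with r of -0.97 to -0.94. An r of 0.9 or more was reached by 62 genes, 0.506% of those searched.

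Other genes of the lineage were counted in lists chosen with earlier results known. Over all genes tested, at most 0.501% were called in 1 direction of a comparison. The medians over all genes were 0.0091, 0.0071 and 0.0065 in the first, the second and the third comparison. Of 30 further genes of myelin and mature oligodendrocytes 28 were tested, and 0 were called in any comparison (limma). An unadjusted p under 0.05 was reached by 13, 2 and 14 in the first, the second and the third comparison, beside 14.1%, 13% and 8.83% of all genes. Lower fitted means in the libraries labelled CRS-NKAα1+/- than in CRS-WT were found for 24 of 28, with a median of -0.41. Higher ones in CRS-WT-DR5-12D than in the libraries labelled CRS-NKAα1+/- were found for 24 of 28, with a median of 0.47, while the median of the second comparison was -0.015. Pllp, a proteolipid of the sheath, averaged 20.2 ± 4.96 FPKM in CRS-WT-DR5-12D, 11.5 ± 2.12 in the libraries labelled CRS-NKAα1+/- and 20.7 ± 1.12 in CRS-WT. Lpar1, a receptor for lysophosphatidic acid, averaged 3.85 ± 1.01 FPKM in CRS-WT-DR5-12D, 2.31 ± 0.394 in the libraries labelled CRS-NKAα1+/- and 5.05 ± 0.928 in CRS-WT. Apod, a lipid carrier that astrocytes and other cells also make, went the other way, at 38.7 ± 15.6 FPKM in CRS-WT-DR5-12D, 104.8 ± 21.7 in the libraries labelled CRS-NKAα1+/- and 77.6 ± 5.75 in CRS-WT, and its difference of 0.41 for that label against CRS-WT was -0.063 after rescaling to TPM, 0.74 without the 3 libraries low in dentate markers and 1.07 with the dentate covariate.

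Of 13 enzymes of myelin lipids tested 0 were called, and the medians were -0.046, 0.053 and 0.18 in the first, the second and the third comparison. Over the 9 libraries their mean log2 level had a Pearson r of 0.87 with the mean of the standardised members. Higher fitted means in CRS-WT-DR5-12D than in the libraries labelled CRS-NKAα1+/- were found for 10 of 13. Gal3st1, which makes sulfatide, averaged 3.88 ± 0.213 FPKM in CRS-WT-DR5-12D, 2.59 ± 0.208 in the libraries labelled CRS-NKAα1+/- and 3.93 ± 1.09 in CRS-WT. Pex5l, which neurons also express, averaged 19.2 ± 2.15 FPKM in CRS-WT-DR5-12D, 16.5 ± 1.13 in the libraries labelled CRS-NKAα1+/- and 14.4 ± 1.34 in CRS-WT. Of 16 tested signals and receptors of myelination 0 were called. Adgrg1, an adhesion receptor of precursors, averaged 10.5 ± 1.23 FPKM in CRS-WT-DR5-12D, 12.7 ± 1.69 in the libraries labelled CRS-NKAα1+/- and 9.70 ± 0.0800 in CRS-WT.

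Most precursor genes and transcription factors had lower fitted means than in CRS-WT in both other groups, and 0 were called. Of 16 genes of precursors and committed precursors 12 had lower fitted means in the libraries labelled CRS-NKAα1+/- than in CRS-WT, as did 10 in CRS-WT-DR5-12D, with medians of -0.20 and -0.079. Their summed FPKM was 111 to 131 in CRS-WT-DR5-12D, 97.1 to 112 in the libraries labelled CRS-NKAα1+/- and 139 to 155 in CRS-WT, so neither of the first 2 groups overlapped CRS-WT. Bcas1, Fyn and Gpr17, the highest of the list in CRS-WT, weigh most on these sums. Bcas1, also among the genes most like the members, averaged 29.8 FPKM in CRS-WT-DR5-12D, 20.6 in the libraries labelled CRS-NKAα1+/- and 40.2 in CRS-WT. Gene by gene, 8 were separate and lower in the first comparison and 6 in the second, beside 10% and 11.4% of all genes. Separate and higher were 0 and 1, beside 10.9% and 11.4%. The sums of the members, at 378 to 728 FPKM in CRS-WT-DR5-12D and 526 to 703 in CRS-WT, overlapped. Whether the 2 lists differ in this was not tested. Gpr17, a receptor of committed precursors, stood at 9.66, 8.94 and 10.0 FPKM in CRS-WT-DR5-12D, at 13.1, 9.25 and 10.4 in the libraries labelled CRS-NKAα1+/- and at 20.4, 23.8 and 18.0 in CRS-WT. Bmp4, a growth factor made by committed precursors, averaged 1.11 ± 0.416 FPKM in CRS-WT-DR5-12D, 0.795 ± 0.271 in the libraries labelled CRS-NKAα1+/- and 2.80 ± 0.536 in CRS-WT.

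Precursor genes with higher fitted means than in CRS-WT in both other groups included Pdgfra, a growth factor receptor of precursors, Cspg4, Tnr and Tmem163, named here after their values were seen. Pdgfra stood at 4.37, 4.39 and 4.54 FPKM in CRS-WT-DR5-12D, at 4.17, 3.77 and 4.04 in the libraries labelled CRS-NKAα1+/- and at 3.81, 3.11 and 3.25 in CRS-WT, with differences of 0.31 in the second comparison and 0.19 in the first (limma adjusted p 0.183 and 0.344). The CRS-WT-DR5-12D libraries lay above both other groups. The other precursor genes named by their p were Enpp6, a choline phosphodiesterase of newly forming oligodendrocytes, and Fyn, a kinase that acts in the start of wrapping. Enpp6 averaged 0.834 ± 0.299 FPKM in CRS-WT-DR5-12D, 0.508 ± 0.141 in the libraries labelled CRS-NKAα1+/- and 1.37 ± 0.131 in CRS-WT. Fyn averaged 25.1 ± 1.27 FPKM in CRS-WT-DR5-12D, 24.1 ± 1.37 in the libraries labelled CRS-NKAα1+/- and 30.5 ± 1.30 in CRS-WT. Of 14 transcription factors of the lineage 11 had lower fitted means in the libraries labelled CRS-NKAα1+/- than in CRS-WT, as did 12 in CRS-WT-DR5-12D, with medians of -0.30 and -0.15. Nkx2-2, which acts at the start of differentiation, averaged 1.27 ± 0.137 FPKM in CRS-WT-DR5-12D, 1.17 ± 0.0574 in the libraries labelled CRS-NKAα1+/- and 2.02 ± 0.0990 in CRS-WT. Id4, an inhibitor of differentiation, averaged 20.02 ± 1.18 FPKM in CRS-WT-DR5-12D, 18.6 ± 2.06 in the libraries labelled CRS-NKAα1+/- and 24.8 ± 1.002 in CRS-WT. Zfp488 and Sox8 were the others named, with differences of -0.25 and 0.063 in the first comparison and of -0.21 and 0.29 in the second. The lowest limma adjusted p of these 8 genes was 0.081, for Gpr17 in the second comparison, where its difference was -1.03.

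Markers of other cells moved with the members to different degrees. Over the 9 libraries, Pearson r between the mean of the standardised members and the mean log2 level of a list was 0.78 for dentate granule cell markers (Spearman rho 0.87), 0.81 for precursor genes, 0.71 for red blood cell genes, 0.42 for endothelial, 0.24 for astrocyte, -0.11 for microglia and -0.45 for neuron markers. Without the 2 libraries farthest from the median of the members it was 0.66 for dentate, 0.89 for precursor, 0.66 for red blood cell, 0.97 for endothelial, 0.76 for astrocyte, 0.44 for microglia and -0.53 for neuron lists. Summed FPKM of 10 astrocyte markers was 660 to 732 in CRS-WT-DR5-12D, 785 to 857 in the libraries labelled CRS-NKAα1+/- and 771 to 870 in CRS-WT. Gfap weighed heavily on the lower CRS-WT-DR5-12D sum, with group means of 52.8, 117 and 160 FPKM in that order. Slc1a2, in contrast, averaged 162, 166 and 163 FPKM. Against CRS-WT, 9 of these 10 markers had lower and 1 had higher fitted means in CRS-WT-DR5-12D, with a median of -0.085. Summed FPKM of 14 dentate markers was 95.3 to 142 in CRS-WT-DR5-12D, 79.0 to 112 in the libraries labelled CRS-NKAα1+/- and 120 to 144 in CRS-WT, with 0 of 14 at 0. C1ql3 carried much of this sum, at 47.9 to 62.4 FPKM in the 3 libraries low in dentate markers and 31.2 to 39.2 in the other 6. It alone had a higher fitted mean for the label CRS-NKAα1+/- than in CRS-WT, and 13 were lower. C1ql2, among these, stood at 0.596 to 0.973 FPKM in those 3 libraries and 23.6 to 40.1 in the other 6. Red blood cell genes, 5 in number, summed to 150 to 277 FPKM in CRS-WT-DR5-12D, 34.6 to 65.8 in the libraries labelled CRS-NKAα1+/- and 85.6 to 310.1 in CRS-WT, so the libraries labelled CRS-NKAα1+/- lay below both other groups. Endothelial markers summed to 51.7 to 68.6 FPKM in CRS-WT-DR5-12D, 65.6 to 89.4 in the libraries labelled CRS-NKAα1+/- and 82.9 to 90.4 in CRS-WT. Microglia markers summed to 154 to 212 FPKM in CRS-WT-DR5-12D, 279.5 to 363 in the libraries labelled CRS-NKAα1+/- and 248 to 303 in CRS-WT. Of the 4 libraries with the lowest mean of the members, 3 were those low in dentate markers, and the other was replicate 3 labelled CRS-NKAα1+/-, at 389 FPKM in sum with dentate markers at 2.63. Egr2, listed here among peripheral nerve markers and also an early activity gene of neurons, stood at 9.73, 7.29 and 7.17 FPKM in the 3 libraries low in dentate markers and at 0.584 to 1.25 in the other 6. The part of the dissected region and of these other cells in the members' levels was not tested.

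**Figure D4:**
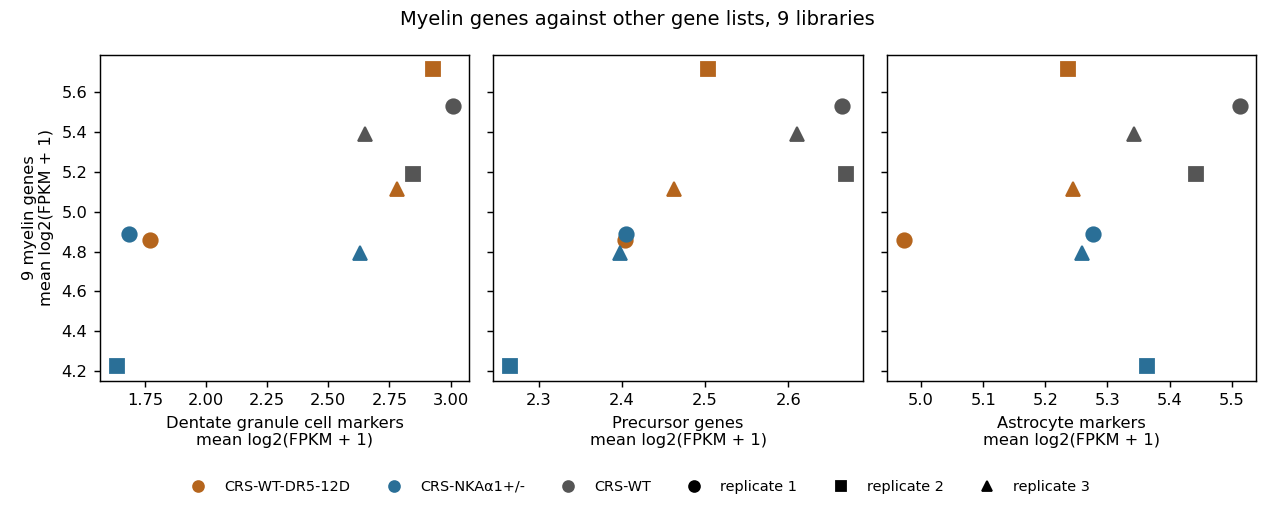
Mean log2(FPKM + 1) of the 9 myelin genes (vertical axis) against that of dentate granule cell markers, precursor genes and astrocyte markers (horizontal axes), 1 point per library, with the group as the colour and the replicate number as the symbol. The 3 libraries low in dentate markers, at 1.63 to 1.77, lie left of the rest and below 5 on the vertical axis, with replicate 3 labelled CRS-NKAα1+/- also below 5.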

How the data were processed

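RNA was measured in 9 libraries of ventral hippocampus, 3 per group, grouped by title. Per the submitters' processing notes, cutadapt, HISAT2, RSEM 1.2.30 and the build GRCm38 were used. Annotation release, strandedness and filters were not given in the sources used here. The authors deposited 1 table of FPKM. In 16215 of 17753 tested genes the values were whole fragments at the exon length of GENCODE vM21, within 0.02 of a whole number, and in 1538 at another length, Mbp (8403 in place of 8469 bases) and Opalin (3676 in place of 2946) among them.

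Genes that averaged 0.5 FPKM or more were tested as log2(FPKM + 1) with limma 3.58.1 in R 4.3.3, all 9 libraries in 1 fit of group means with a trend of spread on mean. Tests were two-sided, with Benjamini-Hochberg adjustment over all genes. Differences on the log2(FPKM + 1) scale understate those of low genes. Tables and plots used Python 3.11.15. The fit was tested on simulated data. Voom with a TMM scaling written here ran on recovered fragments as an alternative.

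Members and lists were chosen with earlier results of these data known. All members are named. Up to 4 genes of each lineage list are named by the smallest p of an F-test over the 3 groups, left as counts where it was 0.05 or more, a limit set after the values were seen. Some genes that these rules would name are not reported here. Same-numbered libraries did not pair.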

Additional observations from a re-analysis of the deposited data

How the results depend on the processing

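The median member difference kept its sign under all 19 alternatives in each of the 3 comparisons. After rescaling to TPM it was -1.19 for the label CRS-NKAα1+/- against CRS-WT, with 9 members called in place of 0, and -0.586 for CRS-WT-DR5-12D against CRS-WT. TPM moved the median of all genes to -0.42, -0.33 and 0.10 in the 3 comparisons and the calls over all genes from 4 and 5 to 7451 and 975 in the first 2. With the dentate covariate the median for the label CRS-NKAα1+/- against CRS-WT was -0.37. With 1 library left out at a time the medians ran from -0.876 to -0.546, from -0.479 to -0.0486 and from 0.305 to 0.605 in the order above. For CRS-WT-DR5-12D against the label CRS-NKAα1+/- the count of members called was 0 in place of 1 (Opalin) with no filter on low values, with 2 groups only in the fit, with the replicate block and without the 3 libraries low in dentate markers, and was 0 to 1 with 1 library left out at a time. With no filter more genes were tested, and the other causes were not tested.

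The replicate block gave 0 and 0 members called in the first 2 comparisons too, and 40 in place of 91 genes called in the third. Deviations of same-numbered libraries correlated at -0.35 to 0.497 over 9 pairs, and 4 of 9 libraries correlated best with their own number, so the numbers were not taken as pairs. Over all genes, calls in the third comparison numbered 30 with no filter, 5 with 2 groups only, 130 with a pseudocount of 0.1, and 1 to 194 with 1 library left out.

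Of 23 named genes, 29 values turned sign from one that was not called; the cause was not tested. For the label CRS-NKAα1+/- against CRS-WT, TPM gave -0.094 for Adgrg1, -0.063 for Apod, -0.28 for Pex5l and -0.40 for Sox8, the last past the threshold (limma adjusted p 0.0318), and Sox8 was -0.11 with the dentate covariate and -0.00016 without the 3 libraries low in dentate markers. For CRS-WT-DR5-12D against CRS-WT, TPM gave -0.25 for Adgrg1, -0.32 for Gal3st1, -0.26 for Mag, -0.31 for Mog and -0.053 for Sox8. Gal3st1 was -0.044 with voom, -0.0095 with the dentate covariate, -0.011 without the 3 libraries low in dentate markers and -0.145 to 0.17 with 1 library left out. Without those 3 libraries Mbp was 0.035 and Pllp 0.084, and Pllp was 0.084 with the dentate covariate. With 1 library left out, Mag ran from -0.095 to 0.29, Mog from -0.19 to 0.21, Mbp from -0.48 to 0.035 and Pllp from -0.24 to 0.084. For CRS-WT-DR5-12D against the label CRS-NKAα1+/-, Id4 was -0.030 without the 3 libraries low in dentate markers, and with 1 library left out Ermn ran from -0.035 to 0.40 and Mobp from -0.0049 to 0.61, both lowest without CRS-WT-DR5-12D replicate 2.

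Fragments per library ran to at least 238 for each member, and 3 libraries a group limit the precision of these comparisons.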
